A study of Mus musculus with 20 samples.

Results

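The comparison described here sets 5 mouse ovary libraries labelled ptLNPIFN-Y against 5 labelled LNPIFN-Y, 10 of the 20 libraries in the series, across all 15723 genes that could be tested. Both groups carry the tumour label of the study, ovarian cancer, and received a lipid nanoparticle, a fat-shelled carrier for RNA. Per the series text the cargo is mRNA for interferon-γ (IFN-γ) and the prefix pt means that a peptide targets the particle. How the particle lacking the prefix was built is not stated, so the difference between the 2 particles is known here only as that prefix. The third group used below, Model, carries the tumour label and no particle. Control, the fourth, has no tumour label and entered the fit but is not described. The series text gives the host as C57BL/6 mice and the tumour as ID8Luci cells, a luciferase-marked mouse line of ovarian surface epithelium, placed in the ovarian bursa after an expansion step that itself used a ptLNP carrying FSHα and FSHβ. That particle was therefore part of the model in that text. The labels give no age, dose or injection schedule for these libraries, nor whether each library is a different animal. The p values therefore set group differences against the spread between libraries, estimated over all 4 groups, which may not be that between animals. No library is labelled as given an empty particle.

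IFN-γ is a cytokine made mainly by T cells and NK cells. It binds the receptor chains Ifngr1 and Ifngr2, whose kinases Jak1 and Jak2 start a signal that reaches the GAS element of target promoters. A first wave of genes includes Irf1, a transcription factor that acts on a second wave of guanylate-binding proteins, chemokines, antigen presentation genes and the checkpoint ligand Cd274. ISRE elements, bound by interferon regulatory factors, sit in many of the same promoters.

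Promoters of 4 response genes are shown because their transcripts carry the comparison: all 4 rose under both particles against Model, and none passed the test between the particles. Each window runs from 250 bases before to 50 bases after the gene start, 300 bases in all, from RefSeq on build GRCm38.p6, written 5′ to 3′ on the gene's strand. Capitals mark the GAS letters TTCNNNGAA, which read the same on both strands, and the ISRE letters GAAANNGAAA, searched on both strands (TTTCNNTTTC on the other). The windows are chr11:53769764-53770063 on the plus strand for Irf1, chr3:142620413-142620712 on the plus strand for Gbp2, chr11:48992197-48992496 on the minus strand for Tgtp1 and chr5:92348840-92349139 on the minus strand for Cxcl10.
Irf1: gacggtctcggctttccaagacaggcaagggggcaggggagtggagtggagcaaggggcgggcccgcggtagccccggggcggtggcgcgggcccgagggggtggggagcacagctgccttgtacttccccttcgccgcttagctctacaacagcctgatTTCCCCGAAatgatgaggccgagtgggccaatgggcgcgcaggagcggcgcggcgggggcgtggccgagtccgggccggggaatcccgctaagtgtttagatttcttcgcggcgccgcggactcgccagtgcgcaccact
Gbp2: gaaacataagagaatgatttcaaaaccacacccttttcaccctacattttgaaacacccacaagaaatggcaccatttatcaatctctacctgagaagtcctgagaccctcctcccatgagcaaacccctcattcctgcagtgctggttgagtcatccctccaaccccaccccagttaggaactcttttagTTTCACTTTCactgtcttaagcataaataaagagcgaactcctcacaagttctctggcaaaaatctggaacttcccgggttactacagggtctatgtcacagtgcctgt
Tgtp1: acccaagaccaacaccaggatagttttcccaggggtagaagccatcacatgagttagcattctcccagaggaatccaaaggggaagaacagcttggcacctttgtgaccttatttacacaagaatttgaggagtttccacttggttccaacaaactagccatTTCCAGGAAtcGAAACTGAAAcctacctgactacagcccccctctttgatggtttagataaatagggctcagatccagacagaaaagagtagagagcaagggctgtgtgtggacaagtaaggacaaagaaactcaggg
Cxcl10: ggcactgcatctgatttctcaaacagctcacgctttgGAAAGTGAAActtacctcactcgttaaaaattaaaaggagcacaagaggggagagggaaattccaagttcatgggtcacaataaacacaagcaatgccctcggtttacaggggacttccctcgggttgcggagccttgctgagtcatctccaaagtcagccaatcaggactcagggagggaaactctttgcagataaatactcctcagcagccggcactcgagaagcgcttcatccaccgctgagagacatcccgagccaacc
The Irf1 window held 1 GAS match, the Gbp2 and Cxcl10 windows 1 ISRE match each, and the Tgtp1 window 1 of each kind with no overlap between them. Of 44 tested genes in a list of IFN-γ targets, 28 had a window in the RefSeq table. GAS letters were in 9 of these 28 (32.1%) and ISRE letters in 11 (39.3%), against 8.47% and 3.49% of the first listed windows of 27025 genes. These are matches of letters, not measured binding.

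No gene passed the test between the particles. In edgeR's quasi-likelihood fit with Benjamini-Hochberg adjustment, 0 of 15723 genes were higher in ptLNPIFN-Y (0%) and 0 were lower (0%) at an adjusted p under 0.05. The smallest adjusted p was 0.9997. At an unadjusted p under 0.05, 225 genes were higher (1.43%) and 256 lower (1.63%), together 3.06% of those tested, and the smallest unadjusted p was 0.0004328. The DESeq2 test and the voomLmFit test with sample quality weights also called 0 genes in either direction. In 16 genes all 5 ptLNPIFN-Y libraries lay above all 5 LNPIFN-Y libraries (0.102% of genes), and in 14 genes all 5 lay below (0.089%).

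Both particle groups differed from Model in many genes. Against Model, 951 genes rose in ptLNPIFN-Y (6.05%) and 149 fell (0.948%), while 825 rose in LNPIFN-Y (5.25%) and 89 fell (0.566%). These 2 comparisons use the same 5 Model libraries, so their calls are not independent of each other and are given side by side only. Left out in turn, Model 3 moved the 4 counts most, to 1578 and 685 in ptLNPIFN-Y and to 1246 and 486 in LNPIFN-Y.

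The data bounded the difference between the particles for most genes and not for all. The 95% interval of the log2 fold change, ptLNPIFN-Y over LNPIFN-Y, lay wholly within 1 unit of 0, which is a 2-fold difference in either direction, in 10553 of 15723 genes (67.1%). With genes cut into 4 equal parts by mean level, the share was 19.9% in the lowest part, then 72.5%, 88.8% and 87.3%. The median arm of the interval, from its centre to one end, was 0.466, the median log2 fold change was -0.005, and 48.6% of genes lay above 0. Libraries of both groups were spread alike, with a median SD of log2 CPM of 0.334 in ptLNPIFN-Y and 0.335 in LNPIFN-Y. CPM here are counts scaled to the TMM-adjusted library size and expressed on the usual CPM scale. With each library left out in turn, the median of 17 of 34 gene lists took both signs.

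**Figure D1:**
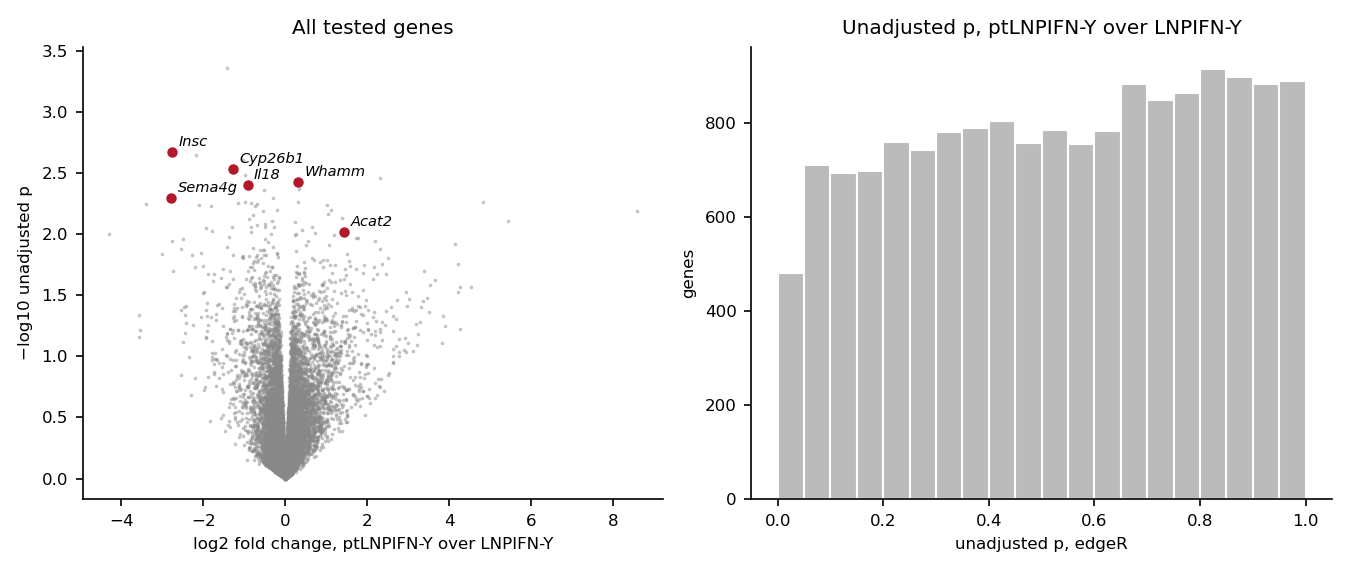
Left, log2 fold change between ptLNPIFN-Y and LNPIFN-Y against −log10 of the unadjusted p for each of 15723 tested genes (grey points), with 6 named genes in red. Right, the number of genes in each twentieth of the unadjusted p, with 481 genes in the leftmost bar and 710 in the next; small p values were not in excess.

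The libraries themselves were of like depth and unlike tissue content. Total counts were 16496793 to 17218043 in ptLNPIFN-Y, 16529892 to 17113937 in LNPIFN-Y and 16581478 to 17184097 in Model, and all libraries carry the same batch label, 1. Foxl2, a granulosa cell transcription factor, had 92.9, 77.7, 52.9, 36.1 and 6.701 CPM in ptLNPIFN-Y 1 to 5 and 20.8, 98.1, 78.3, 112 and 1.98 CPM in LNPIFN-Y 1 to 5, so it was detected in each of the 10 but unevenly. Zp3, an egg-coat gene, had no count in ptLNPIFN-Y 5 and none in LNPIFN-Y 5. Library 5 of each group was thus low in follicle transcripts. LNPIFN-Y 1 was low as well, so the groups were not balanced in this. Its granulosa cell list mean was -2.51, against -3.60 in LNPIFN-Y 5 and -3.05 in ptLNPIFN-Y 5.

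The delivered cytokine's own transcript was above Model under both particles and was not told apart between them. Ifng (gene 15978, chromosome 10, 118441046 to 118445894) had 1.04, 1.13, 1.21, 1.45 and 0.737 CPM in ptLNPIFN-Y 1 to 5 and 0.648, 3.03, 0.342, 0.304 and 1.59 CPM in LNPIFN-Y 1 to 5, against 0.0537 to 0.243 CPM in Model. The ptLNPIFN-Y values lay inside the wider LNPIFN-Y range, and both groups lay above Model. The log2 fold change between the particles was -0.08 ± 0.60 (SE), with a 95% interval of -1.34 to 1.17, which includes a 2-fold difference in either direction, and it was 0.63 without LNPIFN-Y 2. Against Model it rose by 3.19 in ptLNPIFN-Y and 3.28 in LNPIFN-Y (edgeR adjusted p = 0.00613 and 0.00584). Sequence of the delivered mRNA is not given in the sources used here, so its reads and those of the cells' own Ifng cannot be told apart. In bulk tissue, more cells of a type and more RNA per cell cannot be told apart either, for this gene and all those below.

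No receptor or signalling gene passed the test between the particles. Of 12 genes of the ligand, receptor and JAK-STAT list, 7 lay above 0 and 0 passed the test, with a median log2 fold change of 0.06 and 11 intervals within 1 unit of 0. Ifngr1, the ligand-binding chain, averaged 97.5 ± 26.1 CPM in ptLNPIFN-Y and 91.7 ± 31.5 CPM in LNPIFN-Y (SD, n = 5), and its difference was 0.09 ± 0.21 (log2, SE). Ifngr2, the accessory chain, was at -0.05 ± 0.12 with an interval of -0.31 to 0.20. Jak2, a receptor-bound kinase, was at -0.13 ± 0.29 with an interval of -0.75 to 0.49, and at 0.25 without LNPIFN-Y 5. Socs1, which shuts the pathway off, rose against Model by 2.76 in ptLNPIFN-Y and 2.46 in LNPIFN-Y and differed between them by 0.30 ± 0.32 (log2, SE; interval -0.37 to 0.96), 0.67 without LNPIFN-Y 1 and 0.07 without ptLNPIFN-Y 2. The list median ran from -0.01 without LNPIFN-Y 3 to 0.12 without LNPIFN-Y 5.

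Irf1 (gene 16362, chromosome 11, 53770014 to 53778374) rose with both particles and was not told apart between them. It had 276, 481, 312, 365 and 367 CPM in ptLNPIFN-Y and 422, 238, 192, 273 and 354 CPM in LNPIFN-Y, against 49.99, 61.2, 73.3, 42.2 and 40.1 CPM in Model. ptLNPIFN-Y 2 was the highest of the 15 libraries and LNPIFN-Y 1 the next, so the particle groups overlapped, while every particle library lay above every Model library. The log2 fold changes against Model were 2.75 in ptLNPIFN-Y and 2.47 in LNPIFN-Y (edgeR adjusted p = 1.4e-07 and 5.1e-07). Between the particles the value was 0.28 ± 0.21 (SE), a ratio of 1.22 with a 95% interval of 0.899 to 1.65, and it ran from 0.16 without ptLNPIFN-Y 2 to 0.45 without LNPIFN-Y 1. The interval for Irf1 therefore lay within a 2-fold difference in either direction.

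**Figure D2:**
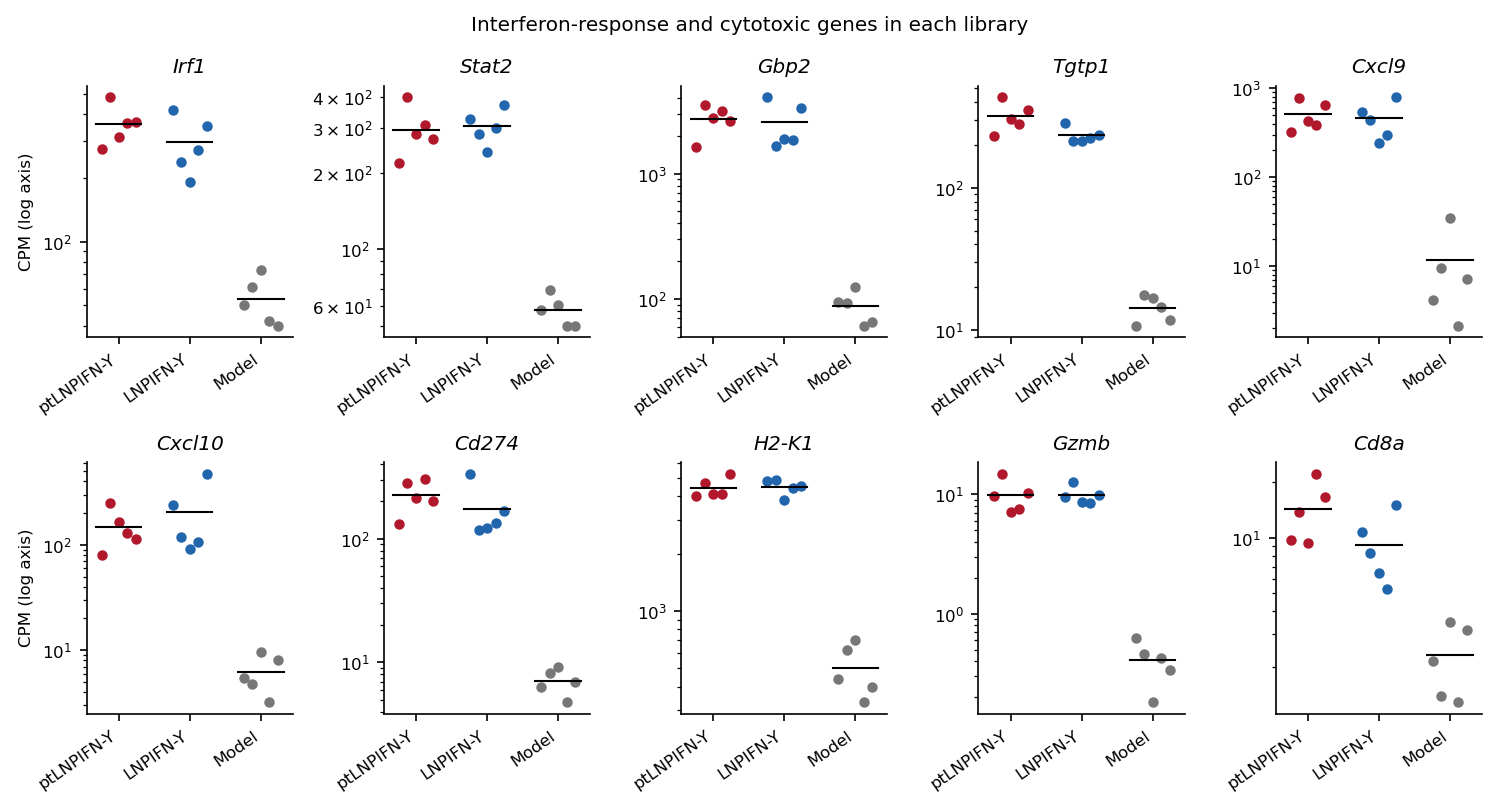
CPM of 10 genes in each of 5 ptLNPIFN-Y, 5 LNPIFN-Y and 5 Model libraries (points, log axes; black bars are group means). For all 10 genes the 2 particle groups overlap and every particle library lies above every Model library.

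Among IFN-γ targets, 43 of 44 tested genes rose against Model in ptLNPIFN-Y and 43 of 44 in LNPIFN-Y, with median log2 fold changes of 3.67 and 3.53. Between the particles 0 of 44 passed the test. The median difference was 0.22 on the log2 scale and 39 of 44 lay above 0, against a median of -0.005 and 48.6% over all genes. Genes of one pathway move together within a library, so the 39 are not separate observations. The list mean, in log2 CPM centred on the 20 libraries, was 1.64, 2.45, 1.97, 2.12 and 2.23 in ptLNPIFN-Y and 2.33, 1.65, 1.41, 1.69 and 2.13 in LNPIFN-Y. LNPIFN-Y 1 exceeded 4 of the 5 ptLNPIFN-Y libraries and ptLNPIFN-Y 1 lay below 4 of the 5 LNPIFN-Y libraries, so the groups overlapped at both ends. Without LNPIFN-Y 1 the median difference was 0.40, and without ptLNPIFN-Y 2 it was 0.13. Cxcl11, a chemokine also on this list, was not analysed here.

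GTPase genes that act against intracellular microbes rose against Model and overlapped between the particles. Gbp2, a guanylate-binding protein, had 1623, 3501, 2777, 3176 and 2606 CPM in ptLNPIFN-Y and 4051, 1655, 1904, 1866 and 3312 CPM in LNPIFN-Y, against 61.3 to 124 CPM in Model. Its highest value was in LNPIFN-Y 1 and its lowest particle value in ptLNPIFN-Y 1, and its difference was 0.10 ± 0.27 (log2, SE; interval -0.46 to 0.66). Gbp10, of the same family, had 685, 1221, 608, 776 and 1260.0 CPM in ptLNPIFN-Y and 1149, 372, 427, 562 and 721 CPM in LNPIFN-Y, against 1.82 to 6.07 CPM in Model. It was at 8.03 and 7.53 against Model and at 0.49 ± 0.37 between the particles (log2, SE; interval -0.29 to 1.28), the last 0.32 without ptLNPIFN-Y 5 and 0.81 without LNPIFN-Y 1. Reads of these GTPases can be split between near-identical family members, so their single values are uncertain.

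Tgtp1 and Ubd were the 2 targets with the smallest unadjusted p. Tgtp1, a GTPase of the target list with a near-identical neighbour, Tgtp2, had 233, 432, 306, 278 and 354 CPM in ptLNPIFN-Y and 287, 214, 212, 225 and 234 CPM in LNPIFN-Y, against 10.8 to 17.7 CPM in Model. ptLNPIFN-Y 1 and 4 lay below LNPIFN-Y 1 and the other 3 above all LNPIFN-Y libraries, and the ratio was 1.37 (interval 1.05 to 1.79, unadjusted p = 0.0247, adjusted p = 0.9997 by edgeR). Ubd, a ubiquitin-like modifier induced by IFN-γ, had 72.2, 89.8, 40.1, 56.7 and 218 CPM in ptLNPIFN-Y and 60.5, 34.8, 15.9, 49.7 and 45.5 CPM in LNPIFN-Y, against 0.161 to 0.8498 CPM in Model. Library ptLNPIFN-Y 5 was the highest of the 10. Its difference was 1.21 ± 0.46 (log2, SE; unadjusted p = 0.0179, adjusted p = 0.9997 by edgeR), and without ptLNPIFN-Y 5 it was 0.63.

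Chemokines that draw T cells through the receptor Cxcr3 were not told apart between the particles. Cxcl9 had 324, 772, 429, 389 and 649 CPM in ptLNPIFN-Y and 536, 440.2, 244, 299 and 788 CPM in LNPIFN-Y, against 2.15 to 35.1 CPM in Model. The highest and the lowest of the 10 particle values were both in LNPIFN-Y, and the interval between the particles was -1.12 to 1.43 (log2). Cxcl10 had 80.5, 246, 166, 129.9 and 113 CPM in ptLNPIFN-Y and 238, 119, 90.5, 106 and 470.4 CPM in LNPIFN-Y. LNPIFN-Y 5 was the highest of the 10, and the log2 difference of -0.47 ± 0.50 (SE) was 0.09 without it. Cd274, the ligand of the T cell brake PD-1, had 132, 279, 213, 303 and 202 CPM in ptLNPIFN-Y and 333, 116, 122, 133 and 168 CPM in LNPIFN-Y, against 4.78 to 9.17 CPM in Model. LNPIFN-Y 1 exceeded all ptLNPIFN-Y libraries and the other LNPIFN-Y libraries lay below 4 of them. The difference was 0.37 ± 0.30 (log2, SE; interval -0.25 to 1.00), and it was 0.74 without LNPIFN-Y 1.

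Most antigen presentation genes rose against Model under both particles, and none passed the test between them. Of 25 class I presentation genes, 22 rose against Model in each particle group, 17 lay above 0 between the particles, the median difference was 0.06 and 23 intervals lay within 1 unit of 0. With each library left out that median ran from -0.01 without ptLNPIFN-Y 5 to 0.14 without LNPIFN-Y 1. H2-K1, a class I heavy chain, had 4023, 4678, 4139, 4107 and 5248 CPM in ptLNPIFN-Y and 4803, 4867, 3845, 4440.0 and 4561 CPM in LNPIFN-Y, against 332 to 705 CPM in Model. Its ratio was 0.986 with an interval of 0.7295 to 1.33. B2m, the shared light chain, had a ratio of 1.02 (0.6902 to 1.52). Tap1, a peptide transporter, was at 1.17 (0.877 to 1.57), and Psmb9, an immunoproteasome subunit, at 1.23 (0.807 to 1.86). Of 15 class II genes, which serve CD4 T cells, 14 rose against Model in ptLNPIFN-Y and 13 in LNPIFN-Y, and between the particles the median was 0.19 with 4 intervals within 1 unit of 0. That median was 0.06 without ptLNPIFN-Y 5, 0.07 without ptLNPIFN-Y 4, LNPIFN-Y 3 or LNPIFN-Y 4, 0.12 without LNPIFN-Y 2, 0.32 without ptLNPIFN-Y 1 and 0.34 without LNPIFN-Y 1. Ciita, the class II master regulator, had 105, 278, 322, 436 and 215 CPM in ptLNPIFN-Y and 383, 154, 167, 159 and 245 CPM in LNPIFN-Y, and H2-Ab1, a class II chain, differed by 0.04 ± 0.42 (log2, SE; interval -0.84 to 0.92).

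Genes of the type I interferon response, which answer interferon-α and -β and in part IFN-γ, also rose under both particles, and none passed the test between them. All 30 tested members of that list rose against Model in both groups, with median log2 fold changes of 2.49 in ptLNPIFN-Y and 2.45 in LNPIFN-Y. Between the particles 15 of 30 lay above 0 and the median was 0.00, with 21 intervals within 1 unit of 0. The median was 0.24 without LNPIFN-Y 5 and -0.13 without ptLNPIFN-Y 2. Stat2, a transcription factor of the type I response, had 218, 397, 286, 308 and 273 CPM in ptLNPIFN-Y and 328, 286, 242, 301 and 372 CPM in LNPIFN-Y, against 50.1 to 69.2 CPM in Model, and a ratio of 0.9701 (0.785 to 1.199). Ifit3, an antiviral RNA-binding protein, was at 0.33 ± 0.30, Isg15, a ubiquitin-like modifier, at 0.13 ± 0.31 and Oas2, which senses double-stranded RNA, at -0.12 ± 0.46 (log2 difference, SE). Oas2 was at 0.21 without LNPIFN-Y 5. Of 21 genes that sense foreign RNA and DNA, 10 lay above 0 between the particles, 12 rose against Model in ptLNPIFN-Y and 14 in LNPIFN-Y. In LNPIFN-Y the 14 became 9 without Model 5.

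**Figure D3:**
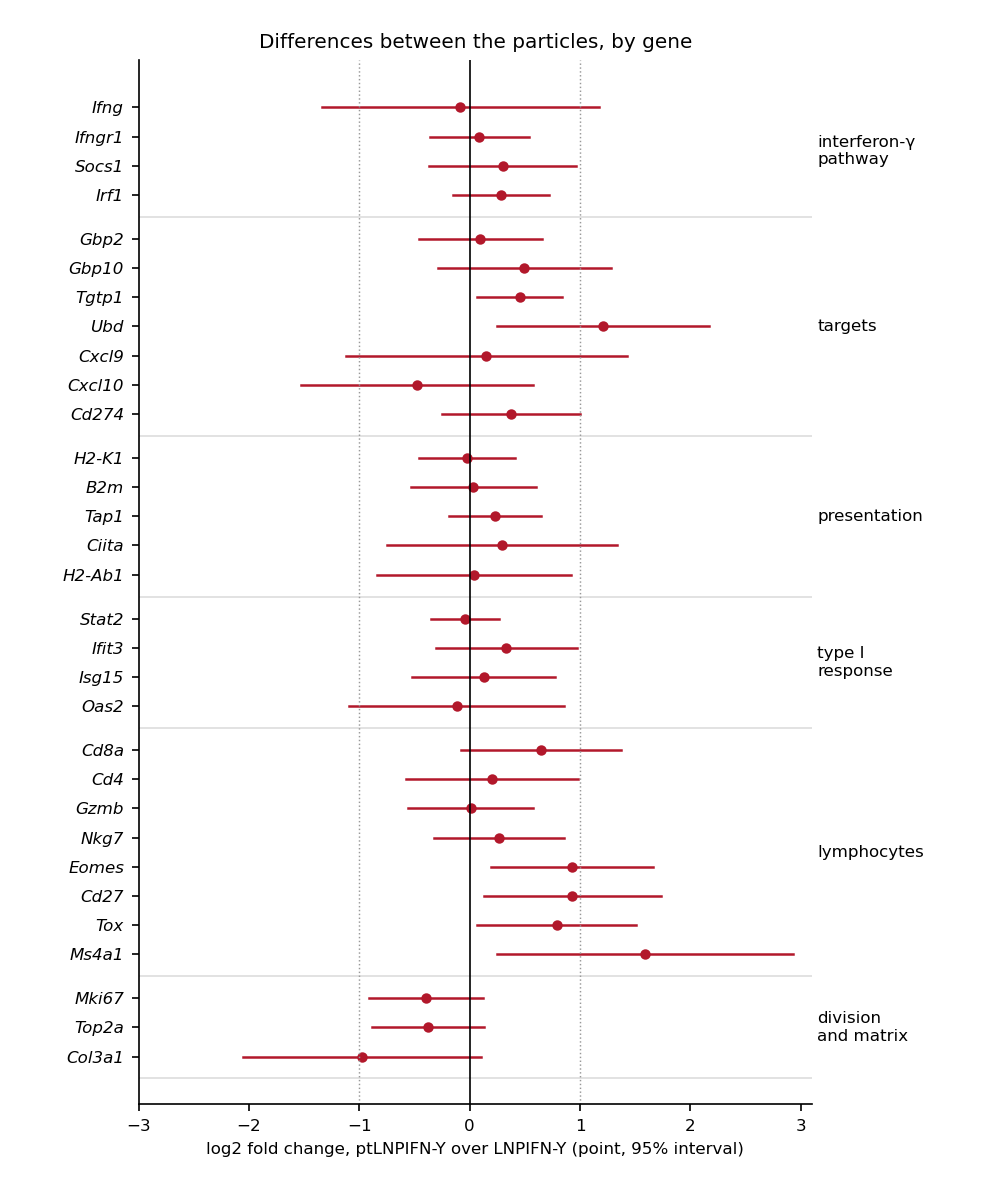
Log2 fold change, ptLNPIFN-Y over LNPIFN-Y, with its 95% interval for genes ordered by role; dotted lines mark 1 unit. Intervals of Irf1, H2-K1, B2m, Tap1, Stat2 and Gzmb lie within the dotted lines, and that of Ms4a1 is among the widest.

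No T cell gene passed the test between the particles, though most had fitted values above 0, with 2 ptLNPIFN-Y libraries the highest. Of 23 T cell genes, 21 rose against Model in ptLNPIFN-Y and 19 in LNPIFN-Y, and 22 of 23 lay above 0 between the particles with 0 past the test and a median of 0.44. The T cell list mean was 0.65, 1.27, 1.03, 2.27 and 1.80 in ptLNPIFN-Y and 1.43, 1.49, 0.35, 0.29 and 1.21 in LNPIFN-Y. ptLNPIFN-Y 4 and 5 were the 2 highest of the 10 libraries and LNPIFN-Y 3 and 4 the 2 lowest. The median was 0.22 without ptLNPIFN-Y 4. Cd3e, a chain of the T cell receptor complex, had 4.79, 7.58, 6.21, 16.2 and 9.31 CPM in ptLNPIFN-Y and 8.49, 8.21, 3.93, 4.805 and 7.67 CPM in LNPIFN-Y. ptLNPIFN-Y 4 was again highest, and without it the log2 difference of 0.41 ± 0.37 (SE) was 0.10.

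CD8 T cells kill target cells and CD4 T cells direct other immune cells. Cd8a had 9.78, 13.8, 9.34, 22.3 and 16.7 CPM in ptLNPIFN-Y and 10.8, 8.32, 6.49, 5.29 and 15.01 CPM in LNPIFN-Y, against 1.29 to 3.52 CPM in Model, and a difference of 0.65 ± 0.34 (log2, SE; interval -0.08 to 1.37). The 2 highest values were in ptLNPIFN-Y and the 3 lowest in LNPIFN-Y. Cd4 was at 0.20 ± 0.37, and Foxp3, the regulator of regulatory T cells, at 0.55 ± 0.66 with an interval of -0.84 to 1.95, 0.26 without ptLNPIFN-Y 5 and 1.35 without LNPIFN-Y 1. Foxp3 rose against Model in ptLNPIFN-Y (log2 2.77, edgeR adjusted p = 0.0218), while in LNPIFN-Y it was at 2.22 with an adjusted p of 0.0793. That contrast is not a difference between the particles, which the direct interval leaves unresolved.

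Cytotoxic genes rose under both particles and were not told apart between them. All 18 NK and cytotoxic cell genes rose against Model in ptLNPIFN-Y and 17 in LNPIFN-Y, and all 18 lay above 0 between the particles with a median of 0.37, 0.23 without LNPIFN-Y 3, and 0 past the test. Gzmb, a killing protease, had 9.78, 14.9, 7.17, 7.59 and 10.3 CPM in ptLNPIFN-Y and 9.53, 12.6, 8.71, 8.46 and 9.99 CPM in LNPIFN-Y, against 0.182 to 0.626 CPM in Model, a ratio of 1.01 (0.681 to 1.49). Prf1, the pore former that lets granzymes in, was at 0.31 ± 0.33 and Nkg7, a granule protein, at 0.27 ± 0.28 (log2, SE). Eomes, a transcription factor of cytotoxic lymphocytes, had 1.97, 2.51, 1.45, 3.29 and 2.61 CPM in ptLNPIFN-Y and 2.08, 1.397, 1.08, 0.791 and 0.8598 CPM in LNPIFN-Y. Only LNPIFN-Y 1 reached into the ptLNPIFN-Y range, and the difference was 0.93 ± 0.35 (log2, SE; unadjusted p = 0.0163, adjusted p = 0.9997 by edgeR).

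Checkpoint genes, the brakes and activity marks of T cells, were not told apart between the particles, and 0 passed the test. Of 20, 16 lay above 0 between the particles with a median of 0.20 (0.11 without LNPIFN-Y 4, 0.12 without ptLNPIFN-Y 4, 0.31 without LNPIFN-Y 1), 11 rose against Model in ptLNPIFN-Y and 7 in LNPIFN-Y. In LNPIFN-Y that count was 11 without Model 3 and 4 without Model 5. Tox, a transcription factor known from exhausted T cells, had 5.04, 4.39, 4.401, 7.78 and 5.43 CPM in ptLNPIFN-Y and 2.46, 4.02, 4.04, 2.86 and 2.25 CPM in LNPIFN-Y, with 2.27 to 6.87 CPM in Model. Tox counts were 38 to 128 in Model, 34 to 71 in LNPIFN-Y and 70 to 123 in ptLNPIFN-Y. Those of Cd3e were 15 to 37, 69 to 141 and 78 to 256. Within ptLNPIFN-Y both genes were highest in library 4. Which cells carried the Tox reads was not tested. For Tox every ptLNPIFN-Y library lay above every LNPIFN-Y library, by a narrow margin, as in 0.102% of all genes. The Model range overlapped both groups. Tox was the 1 gene of the 20 whose groups did not overlap. The difference was 0.79 ± 0.34 (log2, SE; interval 0.07 to 1.51, unadjusted p = 0.0347, adjusted p = 0.9997 by edgeR). Cd27, a costimulatory receptor, was at 0.93 ± 0.38 (unadjusted p = 0.0262 in edgeR), and without ptLNPIFN-Y 4 at 0.70. Lag3 was at 0.16 ± 0.26 and Pdcd1, the gene of PD-1, at 0.23 ± 0.48 (log2, SE), with intervals of -0.39 to 0.70 and -0.79 to 1.25.

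B cell transcripts separated individual libraries rather than the particles. Of 16 B and plasma cell genes, 8 rose against Model in ptLNPIFN-Y and 0 in LNPIFN-Y, while between the particles 0 passed the test and 14 lay above 0, with a median of 0.95. The 8 became 4 without ptLNPIFN-Y 4, without ptLNPIFN-Y 5, and without Model 1, 4 or 5. Ms4a1, the gene of CD20, had 1.97, 3.698, 1.93, 30.4 and 13.00 CPM in ptLNPIFN-Y and 2.399, 5.88, 2.504, 3.65 and 2.51 CPM in LNPIFN-Y, against 0.622 to 3.54 CPM in Model. ptLNPIFN-Y 4 and 5 stood far above all others, and the other 3 ptLNPIFN-Y libraries lay within or below the LNPIFN-Y range. Cd79a, a chain of the B cell receptor complex, had 1.84, 4.26, 1.27, 34.3 and 19.3 CPM in ptLNPIFN-Y and 3.31, 6.93, 4.78, 3.29 and 3.57 CPM in LNPIFN-Y, with the same 2 libraries high. Ccl19, a chemokine of lymphoid tissue, had 8.61, 5.83, 1.39, 30.2 and 25.9 CPM in ptLNPIFN-Y and 4.41, 6.75, 2.33, 7.48 and 3.24 CPM in LNPIFN-Y, and its receptor Ccr7, carried by naive T cells and migrating dendritic cells, was highest in ptLNPIFN-Y 4 and 5 as well (16.2 and 11.5 CPM, against 1.48 to 6.81 CPM in LNPIFN-Y). Without ptLNPIFN-Y 4 the B cell median was 0.35 and the Ms4a1 difference of 1.59 ± 0.64 (log2, SE; unadjusted p = 0.0255 in edgeR) was 0.65. The part of these B cell transcripts in the T cell and checkpoint values, also highest in ptLNPIFN-Y 4 for Cd3e, was not tested.

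**Figure D4:**
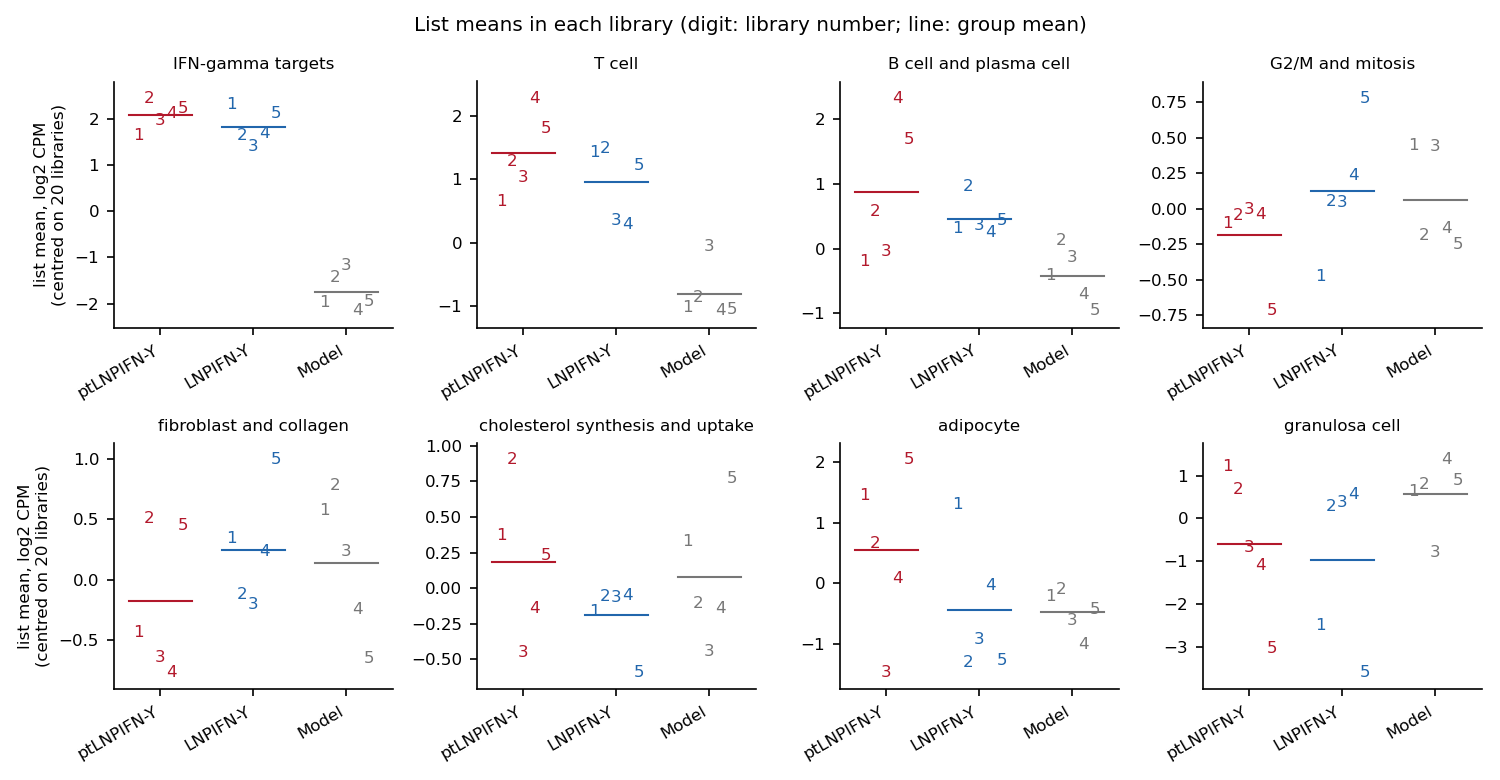
Mean log2 CPM of 8 gene lists, centred on the 20 libraries, in ptLNPIFN-Y, LNPIFN-Y and Model; digits are library numbers and lines group means. IFN-γ targets separate both particle groups from Model, whereas ptLNPIFN-Y 4 and 5 lead the B cell list and LNPIFN-Y 5 the G2/M and fibroblast lists.

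Myeloid transcripts were not told apart. Of 24 macrophage and monocyte genes, 9 lay above 0 between the particles with a median of -0.14, which was 0.14 without LNPIFN-Y 5 and -0.32 without ptLNPIFN-Y 5, and 9 rose against Model in ptLNPIFN-Y and 10 in LNPIFN-Y. The 10 became 6 without LNPIFN-Y 5, and 6 without Model 4 or 5. Adgre1, the macrophage marker F4/80, had 39.9, 86.4, 39.7, 62.3 and 82.5 CPM in ptLNPIFN-Y and 94.02, 79.5, 39.9, 40.6 and 169 CPM in LNPIFN-Y, with LNPIFN-Y 5 highest. Arg1, an enzyme of alternatively activated macrophages, had 11.99, 6.14, 111, 9.17 and 8.71 CPM in ptLNPIFN-Y, where library 3 stood alone, and 9.73, 14.7, 7.63, 2.92 and 20.04 CPM in LNPIFN-Y. A library without a particle was high too: Arg1 had 2185 counts in Model 2, against 1837 in ptLNPIFN-Y 3. The other Model libraries had 50 to 127 counts. Which cells carried the Arg1 reads was not tested. Of 15 dendritic cell genes, 12 lay above 0 with a median of 0.23. That median was 0.09 without ptLNPIFN-Y 5, 0.11 without ptLNPIFN-Y 4, 0.12 without LNPIFN-Y 3 or 4, 0.13 without ptLNPIFN-Y 2, 0.36 without ptLNPIFN-Y 1 and 0.37 without LNPIFN-Y 1. Xcr1 and Clec9a, markers of the dendritic cells that cross-present antigen to CD8 T cells, rose against Model by 3.94 and 2.79 in ptLNPIFN-Y and by 3.69 and 2.56 in LNPIFN-Y, and differed between the particles by 0.25 ± 0.34 and 0.23 ± 0.21 (log2, SE). Il12b, a subunit of the cytokine IL-12, was at 0.66 ± 0.54 with an interval of -0.47 to 1.78.

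All tested G2/M genes had fitted values below 0 between the particles and none passed the test, with LNPIFN-Y 5 above the rest. Of 28 G2/M and mitosis genes, 0 lay above 0, the median was -0.36 and 25 intervals lay within 1 unit of 0. The list mean was -0.10, -0.05, -0.01, -0.04 and -0.72 in ptLNPIFN-Y and -0.48, 0.05, 0.05, 0.23 and 0.78 in LNPIFN-Y. LNPIFN-Y 5 was highest, ptLNPIFN-Y 5 lowest and LNPIFN-Y 1 the next lowest, and the other libraries lay within a narrow band. Mki67, a mark of dividing cells, had 89.7, 91.3, 102, 111 and 67.4 CPM in ptLNPIFN-Y and 79.5, 114, 105, 116 and 194 CPM in LNPIFN-Y, with a difference of -0.40 ± 0.25 (log2, SE; interval -0.92 to 0.12). Top2a, a topoisomerase of dividing cells, was at -0.38 ± 0.24 and Cdk1, the mitotic kinase, at -0.34 ± 0.23. Without LNPIFN-Y 5, Mki67 was at -0.17, Top2a at -0.18 and Cdk1 at -0.14. The list median was -0.16 with LNPIFN-Y 5 left out, and -0.05 with library 5 of both groups left out. Of 27 G1/S genes, 3 lay above 0 with a median of -0.21, and -0.06 without LNPIFN-Y 5. Of 30 apoptosis genes, 16 rose against Model in each particle group, and between the particles 20 lay above 0 with a median of 0.07, 0.20 without LNPIFN-Y 5 and 0.00 without ptLNPIFN-Y 5, and 26 intervals within 1 unit of 0. Bbc3, the gene of the death-promoting protein PUMA, had 9.16, 8.65, 8.38, 9.48 and 12.5 CPM in ptLNPIFN-Y, all above the 5.96 to 8.196 CPM of LNPIFN-Y, with an unadjusted p of 0.0916 in edgeR. It was the 1 gene of the 30 whose groups did not overlap. Over all tested genes, 0.102% lay higher in ptLNPIFN-Y without overlap.

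Matrix genes followed the same LNPIFN-Y library. Of 20 fibroblast and collagen genes, 3 lay above 0, with a median of -0.44 that was -0.18 without LNPIFN-Y 5. Col3a1, a collagen chain of connective tissue, had 877, 1965, 639, 471 and 1703 CPM in ptLNPIFN-Y and 1319, 1336, 1116, 1645 and 5711 CPM in LNPIFN-Y, with 592 to 2528 CPM in Model. Its difference of -0.98 ± 0.52 (log2, SE) was -0.26 without LNPIFN-Y 5. Col1a1, the main chain of type I collagen, was at -0.85 ± 0.50 and at -0.18 without that library.

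Cholesterol and fat genes had high values in some ptLNPIFN-Y libraries, and none passed the test. Of 22 genes of cholesterol synthesis and uptake, 18 lay above 0 with a median of 0.43, 0.22 without ptLNPIFN-Y 2. An unadjusted p under 0.05 was found in 6 of the 22, against 481 of 15723 tested genes (3.06%), and 0 passed the test. Genes of one pathway move together within a library, so the 6 are not separate observations. Nsdhl, a sterol synthesis enzyme, had 88.2, 77.98, 25.1, 38.7 and 111 CPM in ptLNPIFN-Y and 43.9, 30.3, 33.01, 34.2 and 24.01 CPM in LNPIFN-Y. Libraries 1, 2 and 5 of ptLNPIFN-Y were high and 3 and 4 lay within the LNPIFN-Y range. Insig1, which holds the sterol sensor in place, had 265, 185, 55.8, 67.7 and 268 CPM in ptLNPIFN-Y and 91.8, 62.4, 65.8, 101 and 50.5 CPM in LNPIFN-Y, and a difference of 1.18 ± 0.41 (log2, SE; unadjusted p = 0.0101 in edgeR). Acat2 and Pmvk, 2 enzymes of the path, were at 1.44 ± 0.49 and 1.11 ± 0.35 (log2, SE). All 15 adipocyte genes lay above 0, with a median of 1.11 and 0 intervals within 1 unit of 0. That median was 0.60 without ptLNPIFN-Y 5 and 1.77 without LNPIFN-Y 1. Adipoq, a fat cell hormone, had 988, 614, 76.1, 312 and 1819 CPM in ptLNPIFN-Y and 995, 103, 113, 377 and 177 CPM in LNPIFN-Y, with ptLNPIFN-Y 5 highest and LNPIFN-Y 1 and ptLNPIFN-Y 1 next. With 2 tissue list means as covariates the cholesterol median was 0.4, and with the fat list mean added it was 0.27. The Nsdhl difference was 0.33 with all of these covariates, against 1.04 ± 0.34 without them. The fat list mean itself averaged 0.551 in ptLNPIFN-Y and -0.444 in LNPIFN-Y. The part of fat content in the cholesterol values was not tested. Of 20 oxidative phosphorylation genes, all 20 lay above 0 with a median of 0.15, all 20 intervals lay within 1 unit of 0, and the median was 0.04 without ptLNPIFN-Y 5.

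**Figure D5:**
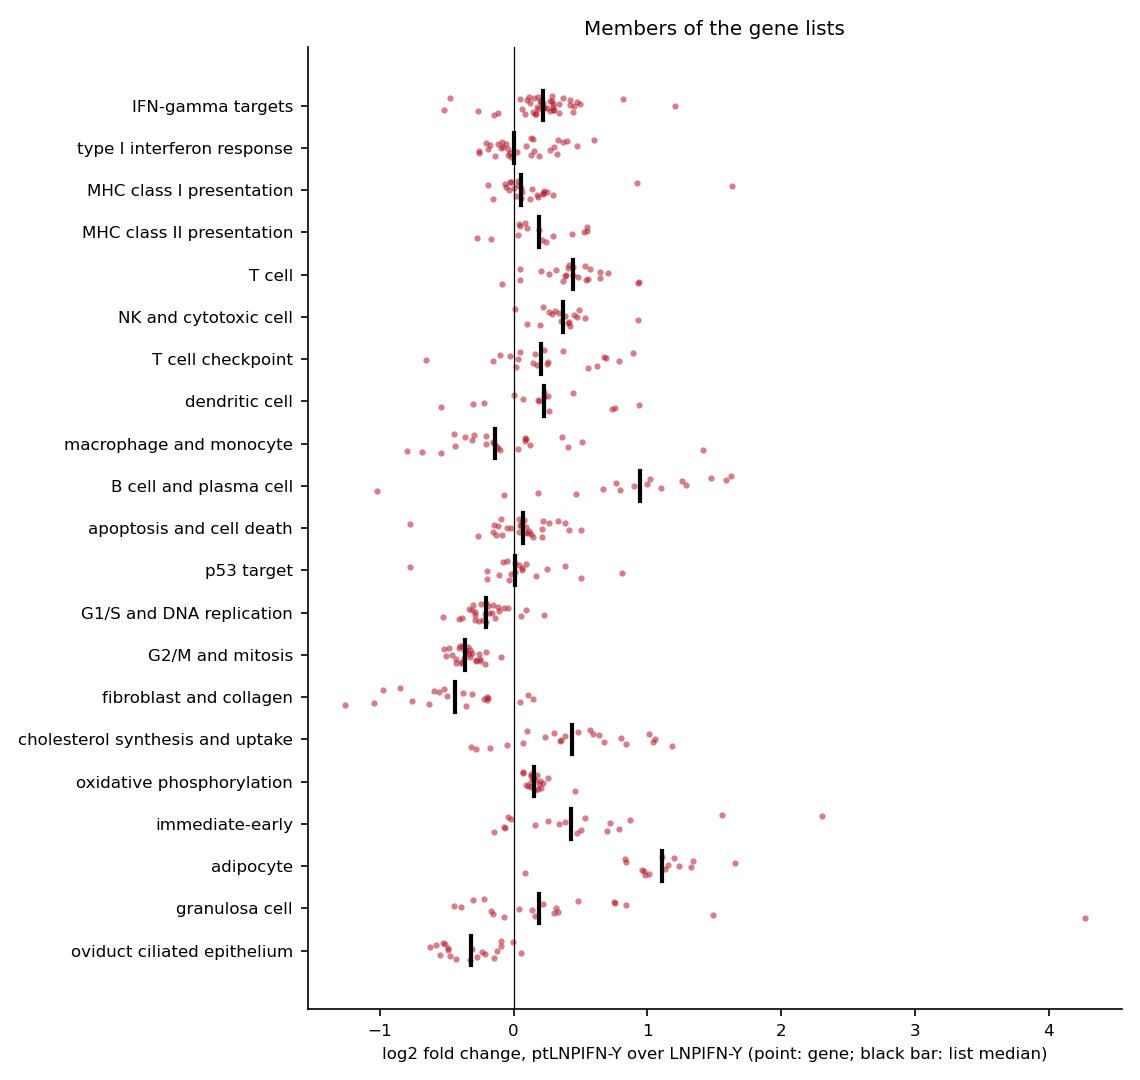
Log2 fold change, ptLNPIFN-Y over LNPIFN-Y, of each tested member of 21 gene lists (points) with the list median (black bar). Most medians lie within 0.5 of 0; those of the B cell and adipocyte lists, at 0.95 and 1.11, lie farthest from it.

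Genes of the follicle and the oviduct were loosely bounded. The median arm of the interval was 1.66 for 20 granulosa cell genes, 2.04 for 23 oocyte genes and 2.92 for 20 oviduct ciliated genes, so changes of several fold in these transcripts would not be seen. Amh, a granulosa cell hormone, had 80.8, 83.2, 53.8, 40.8 and 8.51 CPM in ptLNPIFN-Y and 11.9, 120.4, 78.04, 117 and 1.98 CPM in LNPIFN-Y, low in library 5 of each and in LNPIFN-Y 1. Cyp17a1, an androgen synthesis enzyme of theca cells, had 149, 58.9, 2.29, 3.86 and 1.68 CPM in ptLNPIFN-Y and 5.06, 1.63, 1.54, 2.68 and 0.728 CPM in LNPIFN-Y, with 1.25 to 222 CPM in Model. ptLNPIFN-Y 1 and 2 alone were high, and the ratio of 18.6 had an interval of 2.21 to 156 (unadjusted p = 0.0174 in edgeR). On the log2 scale the Cyp17a1 difference was 4.21 ± 1.46 (SE), and 2.84 without ptLNPIFN-Y 1. It was the highest of 16 theca, luteal and steroidogenesis genes, of which only 6 lay above 0, with a median of -0.21. That median ran from -0.53 without ptLNPIFN-Y 2 to 0.09 without LNPIFN-Y 2. Of 18 immediate-early genes, which respond within minutes to stimuli and to tissue handling, 13 lay above 0 with a median of 0.43. Their median arm was 0.80, and 7 intervals lay within 1 unit of 0. Fosb had 45.6, 52.4, 11.6, 4.995 and 17.1 CPM in ptLNPIFN-Y and 14.3, 3.73, 3.13, 1.82 and 3.77 CPM in LNPIFN-Y, highest in ptLNPIFN-Y 1 and 2, with 0.622 to 44.1 CPM in Model. Its difference was 2.30 ± 0.80 (log2, SE; unadjusted p = 0.0132, adjusted p = 0.9997 by edgeR), and that of Fos was 1.56 ± 0.70.

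The genes with the smallest unadjusted p, chosen for that among genes with a mean log2 CPM of 1 or more in the particle libraries, were mixed. Cyp26b1 (gene 232174, chromosome 6, 84571414 to 84593908), which breaks down retinoic acid, had 3.38, 5.704, 3.98, 4.55 and 4.22 CPM in ptLNPIFN-Y and 9.27, 12.5, 8.37, 10.5 and 11.97 CPM in LNPIFN-Y, with 6.03, 3.49, 14.9, 5.53 and 2.71 CPM in Model. All 5 ptLNPIFN-Y libraries lay below all 5 LNPIFN-Y libraries, with a gap between them, and Model spanned both groups. The difference was -1.27 ± 0.36 (log2, SE), a ratio of 0.415 (0.244 to 0.705; unadjusted p = 0.00293, adjusted p = 0.9997 by edgeR), and it stayed between -1.38 and -1.19 with each library left out. Il18, a cytokine that prompts IFN-γ release, had 11.1, 16.4, 10.8, 7.14 and 9.45 CPM in ptLNPIFN-Y and 10.9, 22.1, 16.4, 17.7 and 36.9 CPM in LNPIFN-Y, a difference of -0.92 ± 0.28 that was -0.61 without LNPIFN-Y 5. Sema4g, a semaphorin, had 13.6, 13.1, 13.3, 11.2 and 4.29 CPM in ptLNPIFN-Y and 7.26, 14.4, 9.79, 14.2 and 337 CPM in LNPIFN-Y. Its difference of -2.78 ± 0.82 rested on LNPIFN-Y 5 and was -0.04 without it. Insc, an adaptor of oriented cell division, was at -2.76 ± 0.73 and at -1.14 without that library.

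At the upper end, Cox10 and Whamm had small differences between tight libraries. Cox10, an enzyme of haem A synthesis for cytochrome oxidase, had 16.4, 15.2, 13.5, 15.9 and 13.8 CPM in ptLNPIFN-Y and 12.4, 12.2, 11.4, 12.5 and 11.9 CPM in LNPIFN-Y. Its groups did not overlap and its ratio was 1.24 (1.07 to 1.43; unadjusted p = 0.00546, adjusted p = 0.9997 by edgeR). Whamm, an actin nucleation factor, rose against Model by 0.83 in ptLNPIFN-Y and 0.52 in LNPIFN-Y (log2; edgeR adjusted p = 7.4e-06 and 0.00139). It had 35.9, 36.7, 30.1, 33.5 and 43.3 CPM in ptLNPIFN-Y and 31.8, 26.9, 28.9, 29.7 and 27.4 CPM in LNPIFN-Y, a difference of 0.31 ± 0.09 (SE). Sod2 and Id1 had larger differences and larger SE. Sod2, the mitochondrial superoxide dismutase, was at 0.66 ± 0.22 and at 0.44 without ptLNPIFN-Y 5. Id1, an inhibitor of helix-loop-helix transcription factors, was at 0.74 ± 0.25 (log2, SE).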

How the data were processed

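Poly(A)-selected RNA of snap-frozen mouse ovary was read on a DNBSEQ platform, per the labels' protocols. Per the submitters' processing notes, HISAT2, RSEM, StringTie and DESeq2 were used on GRCm38.p6, with no versions; strandedness is not given in the sources used here. The deposited table holds the authors' expected counts from RSEM for 20960 genes in 20 libraries, of which 9.85% of values carry decimals. 1 emptied line was not used, 26 symbols turned into dates were restored by gene ID from a RefSeq table, and 61 gene IDs were not in that table.

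Expected counts were rounded and fitted in R 4.3.3 with edgeR 4.0.16: filterByExpr with a minimum count of 10 (15723 genes kept), TMM scaling, and 1 quasi-likelihood model over all 4 groups with 16 residual degrees of freedom and a common biological coefficient of variation of 0.439. The Benjamini-Hochberg adjustment ran over the 15723 genes, with 0.05 as the threshold. SE and 95% intervals are from the fitted coefficients. CPM use TMM-scaled library sizes, and log2 CPM a prior count of 2. List means are centred on the 20 libraries. The test and intervals were tested on simulated data.

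Members, lists and rules were chosen with earlier results of these data known. There were 34 lists with 709 entries. The text names genes by a rule: 125 fixed genes (3 not tested), the 10 with the smallest p in each direction among genes whose mean log2 CPM in the particle libraries was 1 or more, the 10 highest and 10 lowest log2 fold changes among genes whose groups do not overlap, and the 2 smallest p in each list; the text uses part of them. Alternatives were RLE, upper-quartile and library-size scaling, no filter, DESeq2 1.42.0, voomLmFit (limma 3.58.1), the 2 groups alone, the replicate number as a block, tissue covariates, a log2 fold change of at least 1, omission of the 2 libraries that lacked Zp3, and omission of each library in turn. Control was not compared. Figures were drawn with matplotlib 3.10.9.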

Additional observations from a re-analysis of the deposited data

Results flagged for a closer look

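In each group of 5, the gap between an end value and its neighbour was set against the group's range, for the genes and lists of the report (Dixon's 95% value for 5 samples, 0.71). For genes the gap and the range were taken on log2 CPM with a small constant added, though values below are in CPM. Of 208 such groups, 13 held a library that stands apart (6.2%), where chance gives about 5%. ptLNPIFN-Y 5 accounted for 5 and LNPIFN-Y 5 for 5.

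In ptLNPIFN-Y 5, Sema4g at 4.29 CPM, Top2a at 79.3 CPM and Cdk1 at 22.4 CPM were lowest of their group, the G2/M list mean of -0.72 was lowest, and the red blood cell list mean of 2.37 was highest. Arg1 stood out at 111 CPM in ptLNPIFN-Y 3.

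In LNPIFN-Y 5, Sema4g at 337 CPM, Col1a1 at 2566 CPM and Col3a1 at 5711 CPM were highest, while the list means of cholesterol genes at -0.59 and of red blood cell genes at -1.48 were lowest. Lag3 stood out at 12.5 CPM in LNPIFN-Y 1 and the B cell list mean at 0.95 in LNPIFN-Y 2.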

How the results depend on the processing

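Between ptLNPIFN-Y and LNPIFN-Y the count of genes past the test was 0 in both directions under every alternative run, each left-out library included. Against Model, counts are given as ptLNPIFN-Y higher and lower, then LNPIFN-Y higher and lower; they were 951, 149, 825 and 89. They were 730, 49, 645 and 34 with a log2 fold change of at least 1, 954, 226, 804 and 129 with upper-quartile scaling, 900, 731, 751 and 219 with library size alone, and 938, 123, 795 and 77 with no filter. They were 717, 85, 584 and 31 with tissue covariates, 763, 109, 591 and 29 with tissue and fat covariates, 858, 97, 732 and 37 with the 2 libraries that lacked Zp3 left out, and 670, 44, 543 and 8 with the 2 groups alone. voomLmFit gave 1946, 766, 1339 and 580, and DESeq2 1278, 627, 1028 and 492. Over left-out libraries they ran from 713 to 1578, 57 to 685, 595 to 1246 and 29 to 486, the upper ends without Model 3; the cause was not tested. The replicate number as a block gave 797, 79, 685 and 33; same-numbered libraries correlated between -0.312 and 0.76 and matched their own number best only for 2 and 3, so the numbers were not read as pairs. RLE scaling gave 939, 192, 806 and 124. The median of all genes was -0.005 with TMM and -0.033 with library size alone. In the lowest of 4 equal parts of the genes by level, 19.9% of intervals lay within 1 unit of 0; the part of depth in this was not tested.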
